A study of Mus musculus with 2 samples.

Results

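Glycolysis and the hypoxia response were examined through 35 genes chosen by symbol, in immune cells taken alive by flow sorting out of irradiated mouse intestine. All 35 had at least 20 UMIs (unique molecular identifiers, counted transcripts) over both libraries, as did 20174 of the 54838 gene IDs in the files. The libraries came from Dpf2 KO mice and from WT mice, 1 each, and both groups had received 10 Gy of X-rays. Cells were sorted on a viability dye and on whether GFP or Tdtomato signal was present. The sources used here do not state the time after irradiation, the sex and number of mice, any Cre driver or the deleted part of Dpf2. With 1 library per genotype there is no replicate check and no test. Every interval printed is a 95% interval that covers counting error only.

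Glycolysis turns glucose into pyruvate and lactate. Myeloid cells rely on it during inflammation, and in low oxygen its enzymes are induced by HIF, a transcription factor whose alpha subunit is encoded by Hif1a. When oxygen is present, prolyl hydroxylases such as those made by Egln1 and Egln3 mark that subunit for destruction, and Egln3 is itself a HIF target, so the response feeds back on itself. Dpf2 encodes a subunit of the BAF chromatin remodelling complex.

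The 35 members were grouped by role into 16 glycolytic enzymes, 3 transporters of glucose or lactate, 3 regulatory kinases, and 13 genes of HIF and its feedback and target set. Cells were assigned to classes from marker genes, so a class name stands for cells that resemble that type by those markers. A level is the number of UMIs of a gene per 1000000 UMIs of the class (UPM), a share that does not correct for gene length, so levels of different genes are not compared with each other. A member was compared in a class where it had at least 20 UMIs over both libraries. It was called higher or lower where the KO level differed from the WT level by at least 1.5-fold after 10 UPM was added to each, and where the counting interval of the plain ratio lay off 1. The share of all compared genes in the class that met this rule is given beside the counts of members. The log2 ratios of single members carry the added 10 UPM and so understate changes of low genes, while plain ratios do not.

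The KO library had 8265 cells kept with 45042048 UMIs, against 10259 cells with 57454263 UMIs in the WT library. Median depth was 4112 UMIs per cell in KO and 4543 in WT, and 24 barcodes occurred in both libraries. Dpf2 averaged 19.6 UPM in KO cells and 33.3 in WT cells (ratio 0.589, 0.543 to 0.638), and its ratio was below 1 in all 10 classes. In neutrophils and ILC2 the Dpf2 interval included 1, and a transcript outside the deleted part would check nothing. Among 10 classes compared, neutrophils numbered 513 KO and 260 WT cells with 1134292 and 451702 UMIs. Monocytes or macrophages numbered 1100 KO and 1567 WT cells with 8089908 and 8766711 UMIs. Of these, 330 KO and 300 WT cells had an Xist and no Y-linked UMI, and 334 KO and 561 WT cells the converse. In T cells the same sets held 514 KO and 1036 WT cells, and 311 KO and 1168 WT cells. Each library thus held both kinds of cell, in a mix by sex-linked transcripts that differed between the libraries. The part of that mix in the members' ratios was not tested. Clusters led by Gm26917 (253 KO and 433 WT cells) and by Defa24 (294 KO and 3 WT cells) stayed unnamed and outside the classes.

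Promoters are shown for the 5 members that were lower in KO monocytes or macrophages and for P4ha1, which was higher in 3 other classes. Each is the RefSeq window of 300 bases on GRCm38.p6, 250 before to 50 after the gene's start, printed 5′ to 3′ on the gene's strand. Capitals mark the HIF core motif, ACGTG or GCGTG on either strand (CACGT or CACGC), and matches that overlap run together, as in CACGTG, the E-box bound by other factors, which counts as 2 matches. The Bnip3 window lies at chr7:138909457-138909756 (minus strand), Egln3 at chr12:54203825-54204124 (minus strand) and Slc2a1 at chr4:119108495-119108794 (plus strand). The Hif1a window lies at chr12:73907617-73907916 (plus strand), Pfkp at chr13:6648722-6649021 (minus strand) and P4ha1 at chr10:59323046-59323345 (plus strand).
Bnip3: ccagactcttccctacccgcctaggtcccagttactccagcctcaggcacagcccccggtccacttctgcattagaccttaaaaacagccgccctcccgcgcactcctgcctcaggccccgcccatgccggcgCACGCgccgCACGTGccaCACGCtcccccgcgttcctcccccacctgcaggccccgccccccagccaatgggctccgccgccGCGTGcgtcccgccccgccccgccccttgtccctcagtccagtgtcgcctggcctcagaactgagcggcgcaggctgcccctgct
Egln3: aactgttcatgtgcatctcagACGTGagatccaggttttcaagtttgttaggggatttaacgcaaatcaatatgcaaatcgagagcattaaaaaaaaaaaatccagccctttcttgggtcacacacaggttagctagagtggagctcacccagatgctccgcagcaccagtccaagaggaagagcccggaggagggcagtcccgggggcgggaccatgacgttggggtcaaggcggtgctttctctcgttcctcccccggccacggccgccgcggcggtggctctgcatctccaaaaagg
Slc2a1: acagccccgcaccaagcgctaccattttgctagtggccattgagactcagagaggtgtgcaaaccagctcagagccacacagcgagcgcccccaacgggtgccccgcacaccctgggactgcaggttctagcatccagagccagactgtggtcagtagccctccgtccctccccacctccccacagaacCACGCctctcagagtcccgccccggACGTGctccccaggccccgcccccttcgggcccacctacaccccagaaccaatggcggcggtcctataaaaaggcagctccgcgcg
Hif1a: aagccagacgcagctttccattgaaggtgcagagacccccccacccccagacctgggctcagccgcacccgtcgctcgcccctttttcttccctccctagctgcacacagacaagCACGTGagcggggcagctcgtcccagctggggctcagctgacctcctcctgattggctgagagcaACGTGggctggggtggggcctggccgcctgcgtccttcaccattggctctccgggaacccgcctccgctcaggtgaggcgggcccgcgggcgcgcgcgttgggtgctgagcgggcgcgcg
Pfkp: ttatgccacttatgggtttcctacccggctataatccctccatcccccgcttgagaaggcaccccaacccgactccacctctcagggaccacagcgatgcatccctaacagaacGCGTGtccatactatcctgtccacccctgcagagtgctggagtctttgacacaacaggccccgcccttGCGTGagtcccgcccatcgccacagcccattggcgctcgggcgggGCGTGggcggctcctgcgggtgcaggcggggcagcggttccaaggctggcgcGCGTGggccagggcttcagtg
P4ha1: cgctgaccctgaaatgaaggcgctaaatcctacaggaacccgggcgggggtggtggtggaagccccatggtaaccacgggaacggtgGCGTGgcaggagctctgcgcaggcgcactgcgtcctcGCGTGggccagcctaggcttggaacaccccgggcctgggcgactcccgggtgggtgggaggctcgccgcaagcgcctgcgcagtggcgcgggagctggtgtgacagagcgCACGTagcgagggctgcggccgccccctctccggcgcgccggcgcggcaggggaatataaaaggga

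Bnip3 held 5 matches, Pfkp 4, Hif1a and P4ha1 3 each, Slc2a1 2 and Egln3 1. Of 31 members with a window, 25 (80.6%) held at least 1 match and 11 (35.5%) at least 3, against 43.8% and 9.15% of the 27025 genes in the table. The share with at least 1 match was 90% of 10 HIF and feedback genes and 68.8% of 16 glycolytic enzymes, and Hk1, Gpi1, Aldoa, Tpi1, Pkm and Mxi1 had none in this window. Where a gene had several windows the most upstream was taken. Slc2a3, Bnip3l, Ero1l and Ndrg1 were not matched in the table. A match is a run of letters and not evidence of binding.

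Members differed in the cells that carried them. Monocytes or macrophages had the highest level in both libraries for Gpi1, Aldoa, Tpi1, Pgk1, Pgam1, Eno1 and Ldha, which are among the enzymes that carry glucose phosphate on to lactate, and for Bnip3. Gapdh and Pkm led there in WT, while in KO Gapdh led in conventional dendritic cells and Pkm in neutrophils. Ldha, which reduces pyruvate to lactate, stood there at 212 UPM in KO and 283 in WT, and was lowest in plasma cells at 39.7 in KO and 51.0 in WT. Neutrophils led in both libraries for Hk1, for Slc2a3, the high-affinity glucose transporter, for Slc16a3, a lactate exporter, and for Pfkfb4 and Ankrd37. Slc2a3 stood at 296 in KO and 275 in WT neutrophils, against 12.9 in KO and 13.8 in WT monocytes or macrophages. Slc16a3 stood at 239 in KO and 204 in WT neutrophils, and was lowest in B cells at 3.38 in KO and 4.44 in WT.

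Innate lymphoid cells carried others. Hk2, the inducible hexokinase, and Pfkfb3, which makes an activator of phosphofructokinase, were highest in ILC3, at 414 in KO and 456 in WT for Hk2 and at 354 in KO and 403 in WT for Pfkfb3. Egln3 was highest in ILC2, at 365 in KO and 279 in WT, and lowest in B cells, at 4.54 in KO and 3.60 in WT. Hif1a was highest in the cluster led by Il17a and Il23r, at 870 in KO and 898 in WT, and lowest in plasma cells, at 87.0 in KO and 97.2 in WT. Some members were of low level. Pfkm stood at 6.82 in KO and 6.68 in WT ILC2 on 4 UMIs in each, too few to rank. Aldoc was highest in conventional dendritic cells (3.84 in KO and 6.53 in WT), and Adm, which encodes the vasodilator peptide adrenomedullin, in B cells (14.8 in KO and 9.10 in WT). Pdk1, which blocks pyruvate entry into mitochondria, was highest in T cells (27.7 in KO and 20.6 in WT), as were Egln1 (31.2 in KO and 50 in WT), Bnip3l and Mxi1, which encodes a MYC antagonist.

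In neutrophils, 6 of 31 compared members were called higher in KO, where 10.7% of 5941 genes were called higher, and 1 was called lower, where 7.86% were. The 6 were Hk1, Pfkl, Pgam1, Pfkfb3, Pfkfb4 and P4ha1, and Hk3 was the lower one. Of the 31, 22 had a log2 ratio above 0 and 9 below, with a median of 0.22 against 0.06 over all compared genes. The count of 6 fell to 3 with cells thinned to 1000 UMIs, to 3 with 50 UPM added and to 0 in cells with an Xist and no Y-linked UMI. The share of all genes called under each of these settings is not given, so these counts have no background. Pfkm, Aldoc, Pdk1 and Adm had under 20 UMIs there and were not compared.

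**Figure D1:**
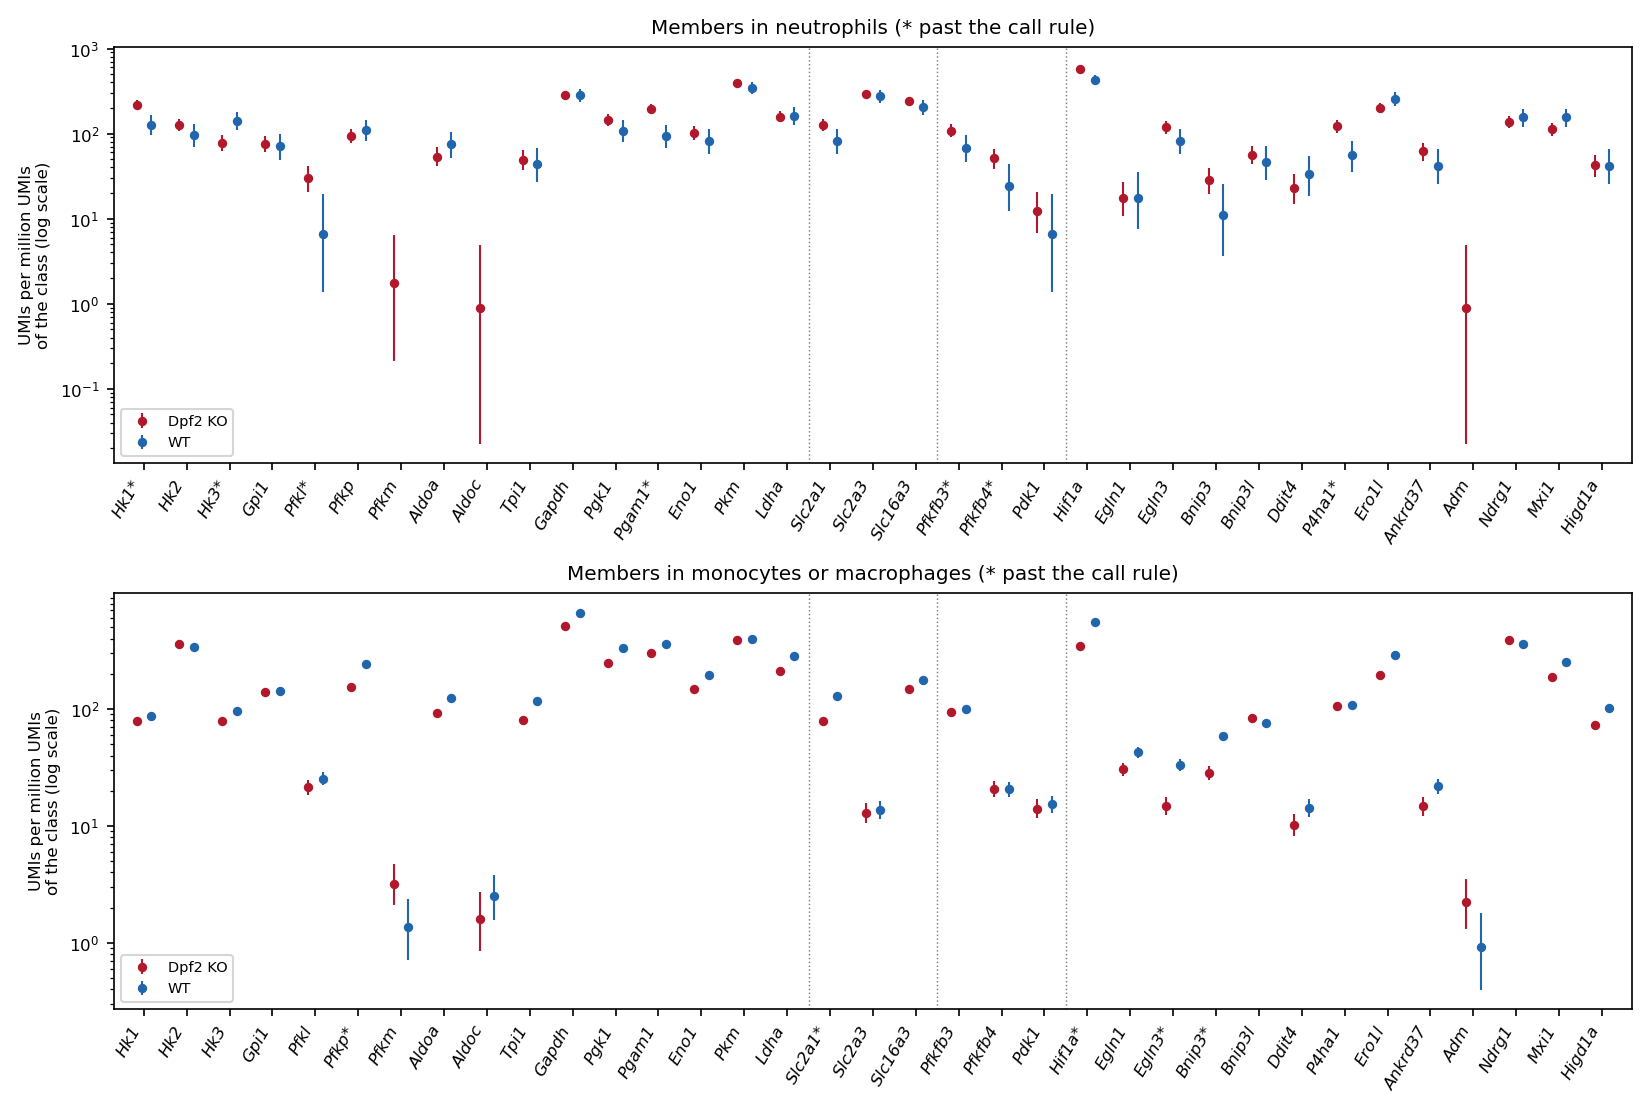
Levels of the 35 members in neutrophils (top) and in monocytes or macrophages (bottom), in UPM of the class on a log axis, Dpf2 KO in red to the left of WT in blue, with 95% counting intervals and dotted lines between role groups; points at 0 are not drawn. Hk1, Pgam1 and P4ha1 stand apart with KO above WT in neutrophils, and Slc2a1, Hif1a, Egln3 and Bnip3 with KO below WT in monocytes or macrophages.

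Hexokinases, which trap glucose in the cell, split in neutrophils. Hk1 had 247 UMIs in KO and 57 in WT, or 218 and 126 UPM (ratio 1.73, 1.29 to 2.34). Hk3, the myeloid form, went the other way with 78.5 UPM in KO and 142 in WT (ratio 0.554, 0.397 to 0.776). Hk2 stood between them at 126 in KO and 95.2 in WT, with an interval (0.936 to 1.91) that included 1. The counting intervals of the Hk1 and Hk3 ratios did not overlap, but in the 48 KO and 17 WT cells with an Xist and no Y-linked UMI the log2 ratio of Hk3 was 0.31.

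Further along the pathway, Pfkl, the liver-type phosphofructokinase, had 34 UMIs in KO and 3 in WT, or 30.0 and 6.64 UPM (ratio 4.51, 1.42 to 23.0). Pfkp, the platelet type, stood at 94.3 in KO and 111 in WT (interval 0.604 to 1.22). Pgam1, the mutase that shifts the phosphate of phosphoglycerate, was at 196 in KO and 93 in WT (ratio 2.10, 1.51 to 3). The other enzymes were not called: Gapdh stood at 286 in KO and 283 in WT, Ldha at 158 in KO and 162 in WT, and Pkm, the pyruvate kinase, at 393 in KO and 343 in WT. Summed, the 16 enzymes reached 2007 UPM in KO and 1742 in WT (ratio 1.15, 1.06 to 1.25).

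Both regulatory kinases compared in neutrophils were called higher. Pfkfb3 stood at 108 in KO and 68.6 in WT (ratio 1.58, 1.06 to 2.42), with a log2 ratio of -0.45 in the cells with an Xist and no Y-linked UMI. Pfkfb4 had 58 UMIs in KO and 11 in WT, or 51.1 and 24.4 UPM (ratio 2.10, 1.09 to 4.44). Slc2a1, the basal glucose transporter, lay just outside the fold at 128 in KO and 81.9 in WT (ratio 1.56, 1.08 to 2.30; log2 0.58). Slc2a3 and Slc16a3 had ratios of 1.08 and 1.17, each with an interval that included 1. The 3 transporters summed to 663 in KO and 560 in WT (ratio 1.18, 1.03 to 1.37).

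Of 12 HIF and feedback genes compared in neutrophils, 1 was called higher, P4ha1, which is not above the 10.7% of all genes called higher there. This subunit of collagen prolyl hydroxylase had 138 UMIs in KO and 25 in WT, or 122 and 55.3 UPM (ratio 2.20, 1.43 to 3.51). Hif1a stood at 579 in KO and 429 in WT (ratio 1.35, 1.15 to 1.59), with an interval above 1 but a fold below the rule. Bnip3, a receptor for the removal of mitochondria, had 32 UMIs in KO and 5 in WT (ratio 2.55, 0.986 to 8.38), so its fold met the rule and its interval did not. Ero1l, an oxidase of the endoplasmic reticulum, and Mxi1 stood lower, at 201 in KO and 257 in WT and at 113 in KO and 155 in WT, without meeting the fold. The 13 genes summed to 1501 in KO and 1326 in WT (ratio 1.13, 1.03 to 1.24). That direction turned round in cells with an Xist but no Y-linked UMI (log2 -0.37, 48 KO and 17 WT cells) and in cells with a Y-linked but no Xist UMI (log2 -0.11, 111 KO and 60 WT cells).

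Other features of the neutrophil class differed between the libraries too. Of 8 compared genes of a list of early granule genes, 6 were called lower in KO and 1 higher, and the 10 listed summed to 353 UPM in KO and 2174 in WT. Camp, an antimicrobial peptide of immature neutrophils, had 0.882 in KO and 766 in WT. Ngp stood at 27.3 in KO and 582 in WT, Chil3 at 16.8 in KO and 208 in WT and Ltf at 15 in KO and 126 in WT, with Lcn2 and Cd177 lower too and Mpo higher. Cells with a UMI of Camp, Ngp or Ltf numbered 33 in KO and 9 in WT, and without them 4 members were called higher and 1 lower. No share of all genes called is given for that set of cells. Of 11 macrophage markers, 7 were compared, and 6 of these were called higher in KO (10.7% of all genes), with a median log2 ratio of 1.05. The 11 summed to 736 in KO and 297 in WT, with C1qc at 0 in WT. Monocyte markers summed to 3791 in KO and 2798 in WT, though 6 of 8 compared lay below 0. Paneth cell markers summed to 181 in KO and 37.6 in WT, while T cell markers were lower at 85.5 in KO and 144 in WT. Of 12 genes of a tissue-handling stress list, 4 were called lower and 1 higher, with sums of 13638 in KO and 17748 in WT. Jun, Egr1, Atf3 and Ier2, which are early response genes, were the lower ones, with Jun at 458 in KO and 1136 in WT, and the heat shock gene Hspa1a was the higher one. A list of genes of mature or activated neutrophils summed to 11758 in KO and 15594 in WT, with a median log2 ratio of -0.05. The 11 neutrophil markers had a higher sum in KO, at 20008 against 17790 in WT. Yet of 10 compared, 4 had a log2 ratio above 0 and 6 below, with a median of -0.04. B cell markers summed to 482 in KO and 226 in WT. Plasma cell markers, which neutrophils should lack, summed to 13504 in KO and 14503 in WT. Median mitochondrial share was 2.26% in KO and 1.21% in WT, and median depth 1751 and 1469.5 UMIs. The part of these differences in the members' ratios was not tested.

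In monocytes or macrophages, 5 of 35 members were called lower in KO, where 1.95% of 13064 genes were called lower, and 0 were called higher, where 2.82% were. They were Pfkp, Slc2a1, Hif1a, Egln3 and Bnip3. All 35 were compared, 29 had a log2 ratio below 0 and 6 above, and the median was -0.25 against 0.04 over all compared genes. With 1 UPM added in place of 10, 2 members were called higher, a count given without the share of all genes.

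Genes of HIF and its feedback had the 3 lowest log2 ratios. Hif1a itself had 2790 UMIs in KO and 4921 in WT, or 345 and 561 UPM (ratio 0.614, 0.586 to 0.644). Egln3, the oxygen sensor that HIF induces, stood at 15 in KO and 33.3 in WT (ratio 0.449, 0.360 to 0.557). Bnip3 stood at 28.4 in KO and 58.7 in WT (ratio 0.484, 0.412 to 0.566). These 3 had KO intervals wholly below the WT ones.

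Several others lay on the same side without meeting the fold. Ero1l lay just outside at 195 in KO and 290 in WT (ratio 0.672, 0.631 to 0.716; log2 -0.55). Mxi1, Higd1a, which encodes a mitochondrial membrane protein, and Egln1 had ratios of 0.744, 0.716 and 0.716. Ankrd37, a hypoxia-induced ankyrin repeat gene, stood at 14.7 in KO and 21.8 in WT, and Ddit4, an inhibitor of mTORC1, at 10.3 in KO and 14.4 in WT.

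Not all genes of the HIF set were lower. P4ha1 stood at 107 in KO and 108 in WT (ratio 0.991, 0.902 to 1.09), and Bnip3l, the sister of Bnip3, at 83.8 in KO and 75.6 in WT (ratio 1.11, 0.994 to 1.24). Ndrg1, a stress-induced gene, stood at 387 in KO and 359 in WT (ratio 1.08, 1.03 to 1.13). Adm had 18 UMIs in KO and 8 in WT. The 13 genes summed to 1481 in KO and 1922 in WT (ratio 0.771, 0.753 to 0.789).

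Glycolytic enzymes were lower as a sum in the same class but with a single call. Pfkp stood at 155 in KO and 243 in WT (ratio 0.640, 0.597 to 0.687). Tpi1, Pgk1, Aldoa, Ldha, Eno1 and Gapdh had ratios between 0.690 and 0.771, each with an interval below 1. Gapdh, for example, stood at 510 in KO and 662 in WT, and Pgk1, which makes ATP, at 247 in KO and 334 in WT. The hexokinases Hk1 and Hk2, the isomerase Gpi1 and Pkm had ratios between 0.906 and 1.05, with Gpi1 at 140 in KO and 143 in WT. The 16 enzymes summed to 2820 in KO and 3412 in WT (ratio 0.827, 0.812 to 0.841).

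Among transporters, Slc2a1 stood at 78.7 in KO and 131 in WT (ratio 0.602, 0.546 to 0.664), and Slc16a3 at 148 in KO and 176 in WT (ratio 0.841, 0.779 to 0.908). The regulatory kinases were near parity: Pfkfb3 stood at 93.7 in KO and 99.9 in WT, Pfkfb4 at 20.8 in both, and Pdk1 at 14.1 in KO and 15.4 in WT. Each of these 3 intervals included 1.

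The class held clusters that differed in makeup, and finer clustering gave 4. A cluster led by Inhba and Spp1 held 544 KO and 960 WT cells, a monocyte-like cluster led by Chil3 and F13a1 held 273 and 456, and a macrophage-like cluster led by Mmp13, Mrc1 and C1qa held 228 and 94. The cells of the Inhba and Spp1 cluster and of the Chil3 and F13a1 cluster all fell in 1 monocyte-like cluster at the coarser clustering that defined the class. The last of the 4 finer clusters, led by Ifit1, held 94 KO and 23 WT cells, some of them outside the class. It had too few cells of the class to be compared. Over the whole class, 10 monocyte markers summed to 5814 in KO and 9506 in WT, and 11 macrophage markers to 4465 in KO and 2768 in WT, with none at 0. Median depth was 6718.5 UMIs in KO and 5311 in WT, and plasma cell markers summed to 7431 in KO and 10722 in WT. Fibroblast markers summed to 8.65 in KO and 66.6 in WT, and T cell markers to 58.7 in KO and 130 in WT. Markers of other cell types went the other way. B cell markers summed to 336 in KO and 142 in WT, Paneth cell markers to 68.2 in KO and 8.10 in WT. Neutrophil markers summed to 468 in KO and 417 in WT. Handling stress genes summed to 5954 in KO and 5375 in WT. The part of these differences in the members' ratios was not tested.

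In the Inhba and Spp1 cluster, 6 of 34 compared members were called lower (2.5% of all genes) and 0 higher (3.58%). They were Slc2a1, Hif1a, Egln3, Bnip3, Ero1l and Ankrd37. Bnip3 stood at 28.2 in KO and 68.7 in WT (ratio 0.411, 0.333 to 0.504) and Hif1a at 348 in KO and 605 in WT (ratio 0.575, 0.541 to 0.611). The HIF and feedback genes summed to 1535 in KO and 2103 in WT (ratio 0.730, 0.708 to 0.752), and the glycolytic enzymes to 3013 in KO and 3643 in WT (ratio 0.827, 0.809 to 0.845).

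The Chil3 and F13a1 cluster looked different. Of 32 compared members, 2 were called lower (5.56% of all genes) and 1 higher (6.26%), which is near the background. Pfkp stood at 135 in KO and 242 in WT and Egln3 at 20.1 in KO and 38.9 in WT, while Ndrg1 was higher at 464 in KO and 291 in WT (ratio 1.59, 1.45 to 1.75). Bnip3 stood at 42.9 in KO and 46.5 in WT (interval 0.697 to 1.22). Its HIF and feedback sum was 1784 in KO and 1702 in WT (ratio 1.05), and its counting interval did not overlap that of the Inhba and Spp1 cluster.

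In the Mmp13 and Mrc1 cluster, 2 of 27 compared members were called lower (3.72% of all genes) and 1 higher (5.52%). Hk3 and Ero1l were lower, and Pfkl was higher with 23 UMIs in KO and 1 in WT (ratio 6.87, 1.12 to 283). Slc2a1 stood at 60.3 in KO and 56.1 in WT, with an interval (0.648 to 1.86) that included 1. Egln3 and Bnip3 had under 20 UMIs there. All members summed to 2791 in KO and 3014 in WT here, below the other 2 clusters in both libraries. Weighting the clusters of the class alike left 1 member called lower in place of 5, again without a share of all genes beside it.

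**Figure D2:**
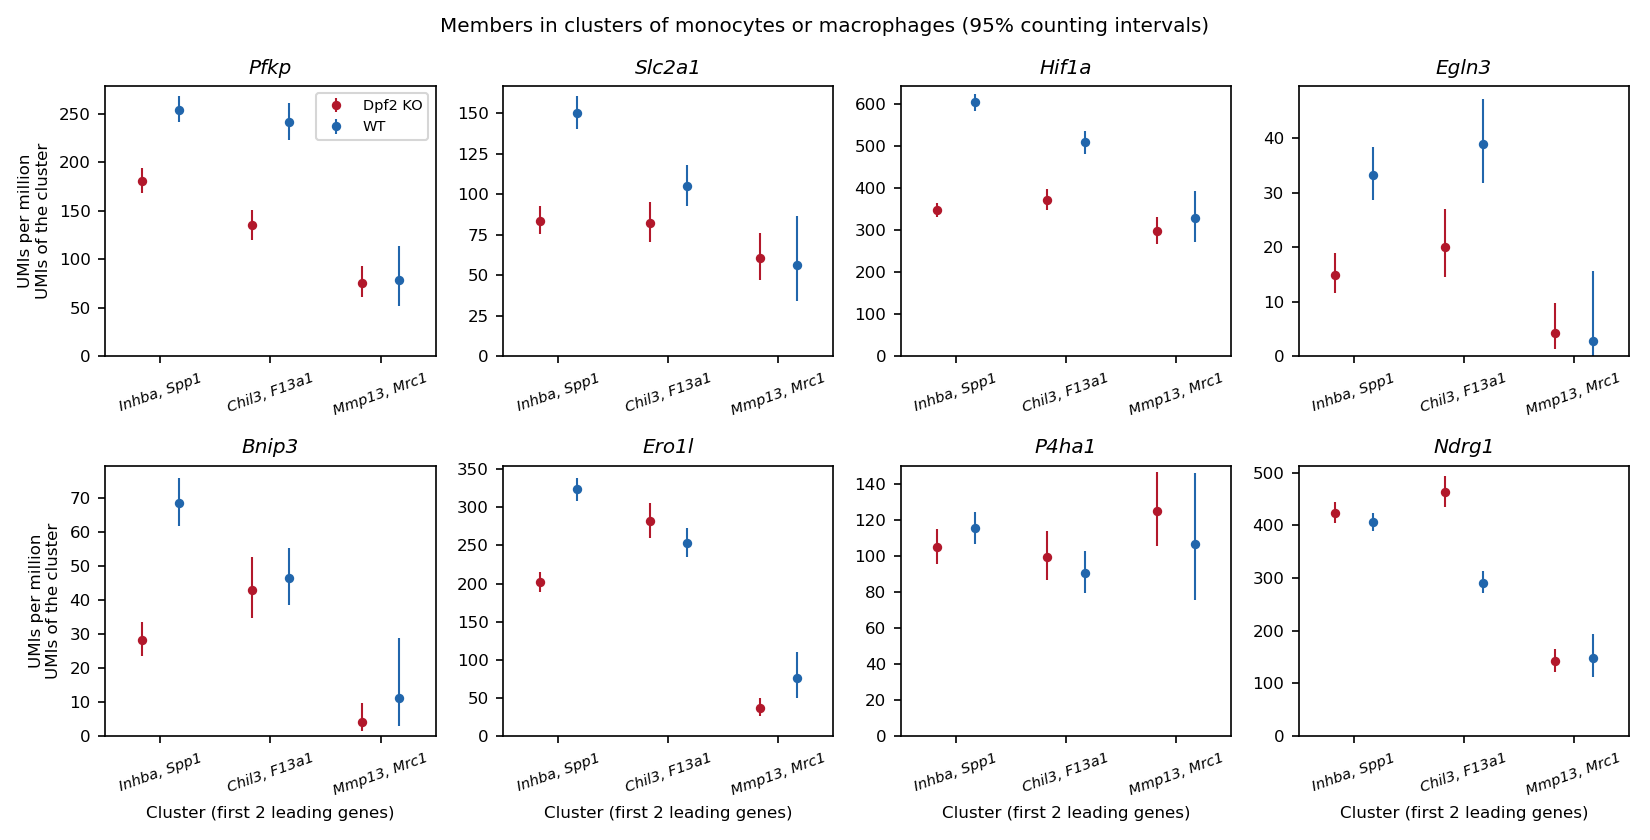
Levels of 8 members in 3 clusters of monocytes or macrophages, in UPM of the cluster on linear axes from 0, Dpf2 KO in red to the left of WT in blue, with 95% counting intervals. Bnip3 and Ero1l are lower in KO in the Inhba and Spp1 cluster and overlap WT in the Chil3 and F13a1 cluster, where Ndrg1 is higher in KO.

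Members in neutrophils and in monocytes or macrophages were set side by side, since the 2 sums lie on opposite sides of parity. No member was called in opposite directions in these classes (0 of 31), and 0.273% of 5870 genes were. With the fold set aside, 3 of 31 members (9.68%) had a counting interval above 1 in neutrophils and below 1 in monocytes or macrophages, as had 1.93% of the 5870 genes. They were Slc2a1 (ratio 1.56 in neutrophils and 0.602 in monocytes or macrophages), Hif1a (1.35 and 0.614 in the same order) and Pgam1 (2.10 and 0.840). The 7 members called in neutrophils had ratios between 0.825 and 1 in monocytes or macrophages. Opposite directions in these classes were part of how the genes were put forward, so these shares are a description and support nothing, and the difference between the classes was not tested.

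In T cells, 5 of 35 members were called lower in KO (2.79% of 13878 genes) and 0 higher (1.79%). All 5 encode enzymes of the steps between aldolase and lactate dehydrogenase. Gapdh stood at 352 in KO and 587 in WT (ratio 0.600, 0.571 to 0.630), Tpi1 at 30.5 in KO and 55.8 in WT (0.546), Aldoa at 53.9 in KO and 92.6 in WT (0.582), and Ldha at 122 in KO and 194 in WT (0.630). Eno1 was called lower too, at 69.6 in KO and 110 in WT. HIF and feedback genes did not share this: their sum was 1894 in KO and 1878 in WT (ratio 1.01, 0.986 to 1.03), while the enzymes summed to 1447 in KO and 1982 in WT (ratio 0.730, 0.712 to 0.748).

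T cell clusters were unequally represented. A cycling cluster led by Pclaf and Top2a held 23 KO and 169 WT cells, and its enzymes summed to 1788 in KO and 3100 in WT. In the other 4 clusters the ratio of the enzyme sum ran from 0.780 to 0.885, each interval below 1, and Gapdh stood below WT in all 5, at 177 to 493 in KO and 259 to 986 in WT. By cluster, 7 of 13 compared enzymes were called lower in the cycling cluster. In the other 4 clusters 2, 1, 0 and 0 were called lower, and 1 was called higher, in the Klrc1 and Klrc2 cluster. The share of all genes called was not counted per T cell cluster, so these counts have no background. The median log2 ratio of the enzymes was -0.74 in the cycling cluster, against -0.03 over all its compared genes. In the other 4 it ran from -0.23 to -0.14, against -0.01 to 0.06. The 5 calls of the class became 3 after thinning to 1000 UMIs, 2 when levels were averaged over cells and 1 with 50 UPM added. These counts too have no share of all genes beside them. Handling stress genes went the other way in T cells, where 7 of 12 were called higher (1.79% of all genes). They summed to 7081 in KO and 4303 in WT, and the part of this in the enzyme ratios was not tested.

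In ILC2, 2 of 25 compared members were called higher, which is the background share (7.98% of 5974 genes), and 5 were called lower (6.6%). Ddit4 had 50 UMIs in KO and 22 in WT (ratio 2.32, 1.38 to 4.02) and P4ha1 50 in KO and 20 in WT (2.55, 1.49 to 4.53). Ldha stood at 138 in KO and 277 in WT (ratio 0.498, 0.377 to 0.654) and Pfkp at 81.8 in KO and 160 in WT (0.510, 0.353 to 0.729), and Gpi1, Aldoa and Eno1 were called lower too. In ILC3, 3 of 27 were called higher (4.75% of 7957 genes) and 1 lower (6.43%). P4ha1 stood at 84.1 in KO and 40.2 in WT (2.10, 1.38 to 3.28), Ddit4 at 78.7 in KO and 45.9 in WT, Pfkl at 28.3 in KO and 12.9 in WT, and Gapdh was lower at 183 in KO and 284 in WT. The handling stress genes summed to 9394 in KO and 6504 in WT ILC2 and to 21530 in KO and 18028 in WT ILC3, and their part in these ratios was not tested.

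The remaining classes had few calls. In NK cells, 1 of 30 members was called higher (4.75% of all genes), Hk2 at 187 in KO and 119 in WT, and 0 lower (4.08%). In B cells 0 of 35 were called higher (0.988%) and 1 lower (2.54%), Gapdh at 155 in KO and 273 in WT (ratio 0.569, 0.528 to 0.614). In plasma cells 1 of 35 was called higher (1.88%), Ddit4 at 28.7 in KO and 14.5 in WT, and 2 lower (5.01%), Pfkp at 47.2 in KO and 101 in WT and Eno1 at 9.97 in KO and 25.8 in WT. In conventional dendritic cells 0 of 35 were called higher (2.8%) or lower (2.09%), and in the Il17a and Il23r cluster 0 of 31 higher (2.92%) or lower (3.49%). Handling stress genes summed higher in KO in each of these 5 classes, with ratios between 1.10 in conventional dendritic cells and 1.47 in the Il17a and Il23r cluster, and their part was not tested. No member was called over all cells together. There Hk2 stood at 179 in KO and 136 in WT, Slc2a1 at 53.2 in KO and 53.6 in WT, and Higd1a at 55.5 in KO and 72.0 in WT.

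**Figure D3:**
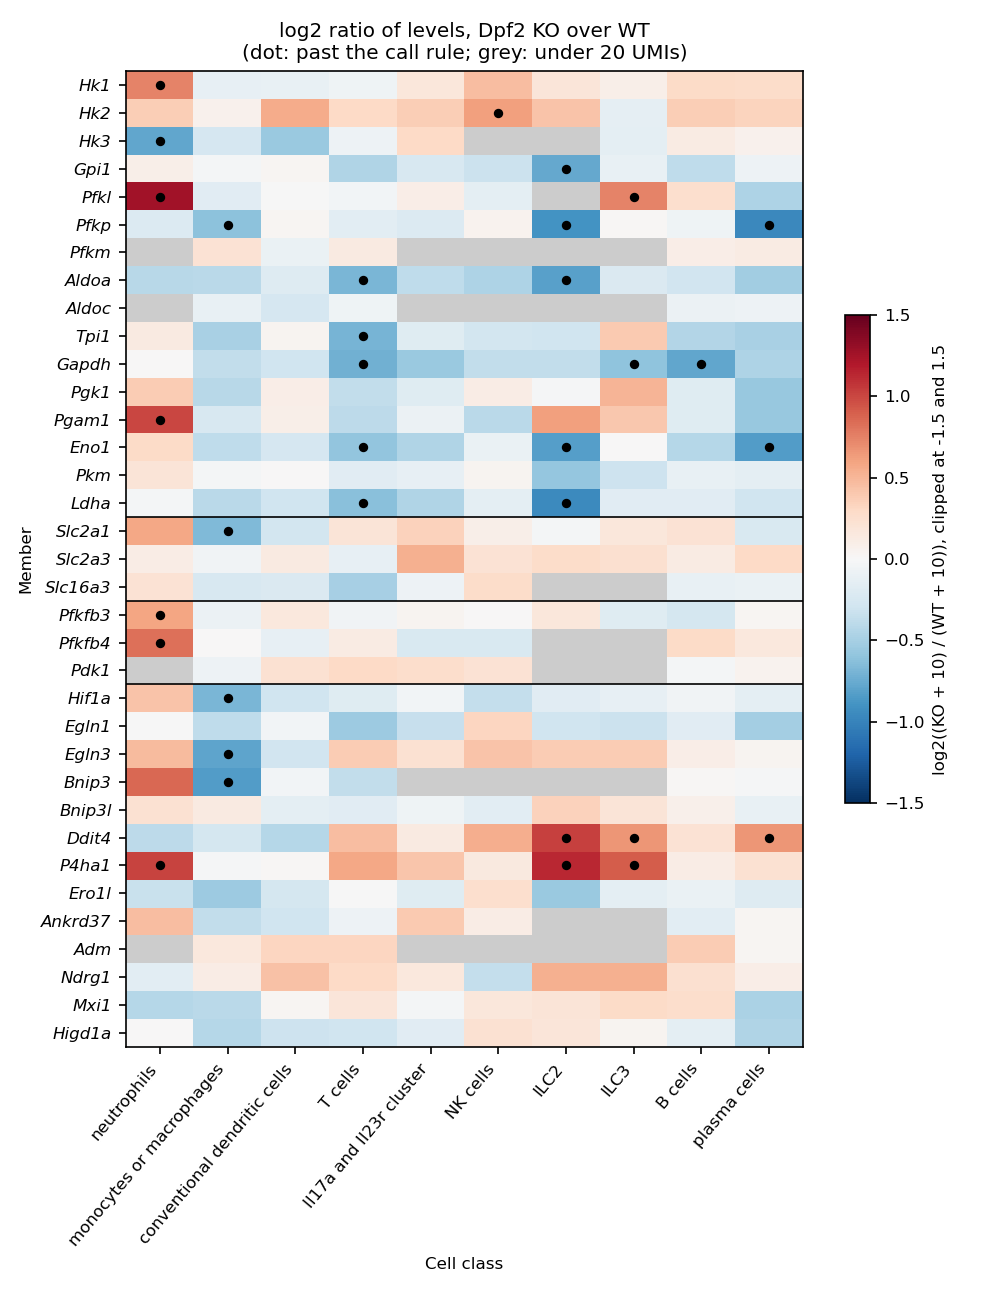
Log2 ratio of each member's level in Dpf2 KO over WT, after 10 UPM was added to each, in 10 cell classes; red is higher in KO, blue lower, dots mark calls and grey marks members under 20 UMIs. Calls of Gapdh, Ldha and Eno1, where they occur in the lymphoid classes, are blue. Those of Ddit4 and P4ha1 are red, as are the enzyme calls of Hk2 in NK cells and Pfkl in ILC3.

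In most classes the enzyme sum and the HIF sum parted. The summed enzymes had a ratio below 1 in 9 of 10 classes, all but neutrophils, from 0.706 in ILC2 to 0.963 in conventional dendritic cells, and the interval included 1 in NK cells. Low sums were not particular to these enzymes, which had ratios of 0.730 in T cells, 0.914 in ILC3 and 0.744 in plasma cells. In the same order, pentose phosphate genes summed to ratios of 0.810, 0.727 and 0.691, and tricarboxylic acid cycle genes to 0.861, 0.790 and 0.706. Genes of other glycolytic steps did not share this, at 1.21, 1.01 and 1.18. The HIF and feedback sum had a ratio above 1 with an interval off 1 in neutrophils, ILC2 (1.11, 1.01 to 1.22) and ILC3 (1.18, 1.09 to 1.28). It was below 1 with an interval off 1 in monocytes or macrophages and in plasma cells (0.882, 0.844 to 0.923). In T cells, B cells, NK cells, conventional dendritic cells and the Il17a and Il23r cluster its interval included 1. In T cells, conventional dendritic cells, the Il17a and Il23r cluster, ILC2, ILC3, B cells and plasma cells the interval of the HIF ratio lay above that of the enzyme ratio. In conventional dendritic cells the list medians had the reverse order, with a log2 ratio of -0.15 for HIF and feedback genes and -0.05 for enzymes. In neutrophils the HIF sum fell below 0 in cells with an Xist but no Y-linked UMI, and in those with the converse. It also turned round in ILC2 among cells with an Xist but no Y-linked UMI (log2 -0.070). The same happened in ILC3 with classes taken from marker UMIs (log2 -0.0004) and in plasma cells thinned to 1000 UMIs (log2 0.10).

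**Figure D4:**
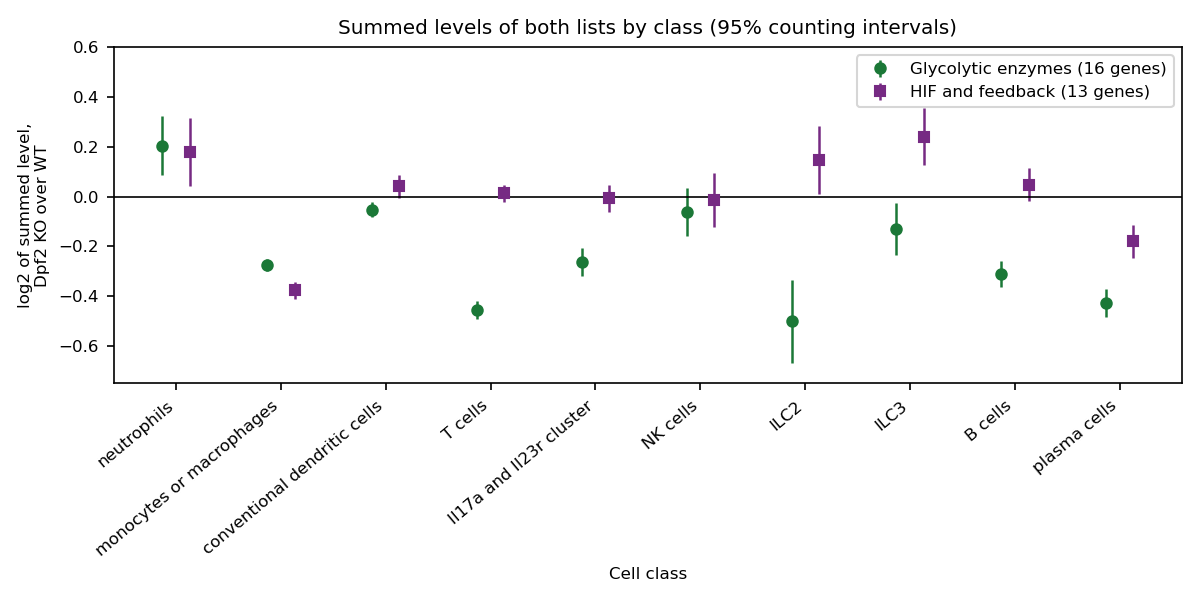
Log2 ratio, Dpf2 KO over WT, of the summed level of 16 glycolytic enzymes (green circles) and 13 HIF and feedback genes (purple squares) in 10 cell classes, with 95% counting intervals. Both sums lie above 0 in neutrophils and below 0 in monocytes or macrophages, and only the enzyme sum lies well below 0 in T cells and ILC2.

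Neighbouring pathways were counted in the same way. Over all compared genes, 10.7% were called higher and 7.86% lower in neutrophils, so single calls in lists this short are near that background. In neutrophils 2 of 4 compared genes of other glycolytic steps were called higher, Hkdc1 at 105 in KO and 35.4 in WT (ratio 2.96, 1.75 to 5.35) and Adpgk at 25.6 in KO and 8.86 in WT. Mpc1, a subunit of the mitochondrial pyruvate carrier, was the only call among 6 pyruvate entry genes, lower at 67.0 in KO and 111 in WT. G6pdx, the entry enzyme of the pentose phosphate pathway, was the only call among 7, lower at 21.2 in KO and 46.5 in WT. Of 12 other HIF genes Cited2, a HIF inhibitor, was lower at 285 in KO and 496 in WT and Vegfa, the vessel growth factor, at 197 in KO and 308 in WT. None of 7 tricarboxylic acid cycle genes was called.

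In monocytes or macrophages, 3 of 20 other HIF genes were called lower (1.95% of all genes) and 0 higher (2.82%). Of the 20, 10 had a log2 ratio above 0 and 10 below, with a median of -0.004, and the list had a summed ratio of 0.958. Nos2, the inducible nitric oxide synthase, stood at 4.08 in KO and 21.8 in WT (ratio 0.187, 0.125 to 0.272). Vegfa stood at 140 in KO and 226 in WT (0.620, 0.576 to 0.667) and Fam162a at 32.9 in KO and 54.9 in WT (0.599, 0.514 to 0.698). Vegfa was thus lower in KO in both myeloid classes. None of 13 other glycolytic, 10 pyruvate entry, 7 pentose phosphate or 13 tricarboxylic acid cycle genes was called there.

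Gene span, the length of a gene with its introns, moved with the ratios in neutrophils. With all compared genes split by span into 5 equal groups, the median log2 ratio was -0.06 in group 1, the shortest, and 0.15 in group 4. The members there had medians of 0.07 in group 1 (6 members) and 0.37 in group 4 (7 members). In monocytes or macrophages the medians of all genes ran between 0.00 and 0.07, and those of the members between -0.36 and -0.01. In T cells the medians of all genes ran between -0.04 and 0.06. Those of the members ran from -0.49 in group 2 (7 members) to 0.16 in group 4 (10 members). The 5 enzymes called lower in T cells all lay in groups 1 and 2. The part of gene span in the members' ratios was not tested. Several glycolytic enzyme genes have processed copies elsewhere in the genome. Features named as copies of Aldoa, Gapdh and Pgk1 had 0 UMIs, those of Ldha 1 in KO and 1 in WT, and Eno1b had 25 in KO and 53 in WT beside 3223 and 5325 for Eno1. Reads that fit several copies may have been discarded before counting, so levels of these genes are uncertain in scale.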

How the data were processed

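The files hold raw UMI counts per gene and cell barcode for 1 Dpf2 KO and 1 WT library, counted per the file headers by Cell Ranger 7.0.0, on GRCm38 per the submitters' processing notes. The sources used here do not say whether reads in introns were counted. The 35 members, the other lists and the call rule were chosen with earlier results of these data known.

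Barcodes with at least 200 genes, 500 UMIs and at most 20% mitochondrial UMIs were kept (8681 KO and 10896 WT). Scrublet in scanpy 1.11.5 then removed 416 KO and 637 WT doublets. Cells of both libraries were clustered with Leiden (leidenalg 0.10.2) at resolution 1 on 2000 variable genes and 30 components, and clusters were named from at least 3 markers among their 200 top-ranked genes. A class was compared where each library held 100 of its cells or more. Counts were summed per class and library, since cells are not replicates, and levels were given as UMIs per 1000000 UMIs of the class. Level intervals are exact Poisson and ratio intervals are from the conditional binomial, both at 95%, and they cover counting error only.

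Every member is named with its level. All called members are named in neutrophils and in monocytes or macrophages, and in other classes and lists at least the 4 called ones with the largest log2 ratios. Aldoa has 2 gene IDs, whose counts were summed. Promoter windows came from RefSeq (GRCm38.p6). The most upstream window of a gene was used, and 31 of 35 members matched. The alternatives changed the added level, the count minimum, cell filters, doublets, class definition, scaling, averaging, thinning to 1000 UMIs, and the cells by Xist and Y-linked UMIs.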

Additional observations from a re-analysis of the deposited data

Results flagged for a closer look

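In 3 of 31 members (9.68%) the counting interval of KO over WT lay above 1 in neutrophils and below 1 in monocytes or macrophages. The same held for 1.93% of 5870 genes and for both summed lists. Opposite directions in these classes were part of how the genes were put forward, so these values are a description and support nothing. The difference between the classes was not tested. The log2 ratio in neutrophils minus that in monocytes or macrophages was 1.24 for Pgam1 (0.998 against -0.24). For Slc2a1 it was 1.25 (0.58 against -0.67), and for Hif1a it was 1.11 (0.42 against -0.69). The 16 glycolytic enzymes summed gave 0.48 (0.20 against -0.27), and the 13 HIF and feedback genes summed gave 0.55 (0.18 against -0.38). In neutrophils split by Xist and Y-linked UMIs, that HIF sum fell below 0 in both sets of cells.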

How the results depend on the processing

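With 1 library per genotype, agreement across settings says nothing of the spread between mice, and neutrophils had the fewest UMIs of the myeloid classes. No paired analysis was possible because each genotype has 1 library. All values are log2 of KO over WT or counts of members called, and the cause of each shift was not tested. The share of all genes called under each alternative is not given, so changes in these counts have no background.

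Among neutrophils with an Xist but no Y-linked UMI (48 KO and 17 WT cells) the HIF sum was -0.37, the enzyme sum 0.023, Hk3 0.31 and Pfkfb3 -0.45, with 0 members called higher. With a Y-linked but no Xist UMI the HIF sum was -0.11 and 2 members were called lower. Averaging over cells gave a HIF sum of 0.33. Members called higher numbered 6 as reported, 3 after thinning, 2 at a fold of 2 and 3 with 50 UPM added. At a fold of 2, and with 50 UPM added, 0 were called lower. Without cells holding a Camp, Ngp or Ltf UMI, a choice made after seeing the data, the enzyme sum was 0.26 and the HIF sum 0.13.

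In monocytes or macrophages the HIF sum was -0.38 as reported and the enzyme sum -0.27. They were -0.47 and -0.38 in Xist cells, -0.28 and -0.23 in Y-linked cells, -0.24 and -0.18 with clusters weighted alike, and -0.42 and -0.32 averaged over cells. They were -0.14 and -0.10 in macrophage-like clusters, -0.31 and -0.21 in the monocyte-like cluster of the coarser clustering, which also holds the Inhba and Spp1 cells, and -0.41 and -0.31 with the median of all genes set to 0. Thinning gave a HIF sum of -0.47. Members called lower numbered 8 in Xist cells, 2 in Y-linked cells, 1 with clusters weighted alike, 2 in macrophage-like clusters, 0 at a fold of 2 and 1 with 50 UPM added, and 2 were called higher with 1 UPM added. In macrophage-like clusters Slc2a1 was 0.12 and Egln3 0.18.

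Elsewhere the enzyme sum was 0.0005 in conventional dendritic cells with Xist. The HIF sum was -0.070 in ILC2 with Xist, -0.0004 in ILC3 classed by marker UMIs and 0.10 in thinned plasma cells. The enzyme sum was below 0 under each alternative run in T cells, the Il17a and Il23r cluster, NK cells, ILC2, ILC3, B cells and plasma cells.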
